A study of Mus musculus with 5 samples.

Results

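The data set out here are the transcripts of 8 mouse genes of cytokine and interferon signalling, namely Stat2, Stat3, Irf1, Irf7, Irf8, Irf9, Socs1 and Socs3. They were chosen by name as the STAT and interferon regulatory factors (IRFs) of the pathway with its Socs genes as feedback, and all 8 were among the 16498 genes of the table. Cells of the aortic arch were measured individually with droplet-based 3′ RNA sequencing, as 5 libraries from mice that all lacked Apoe, a change that raises plasma cholesterol and leads to atherosclerosis. The 2 control libraries were Oasl1+/+Apoe-/- (called Apoe-/- below), and the other 3 were labelled Oasl1-/-Apoe-/-. All mice had eaten normal chow for 28 weeks, live cells had been sorted with DAPI, and the cells of several mice had been pooled (n = 6 by the design text). The Oasl1 deletion was in the whole animal, so no cell type was targeted alone.

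Type I interferons signal through the kinases Jak1 and Tyk2 to STAT2, which acts with IRF9 in a complex (ISGF3) that binds interferon-stimulated response elements. IL-6 family cytokines act mainly through STAT3, whose dimers bind gamma-activated sites. SOCS1 and SOCS3 are induced by these pathways and inhibit the kinases or receptors upstream, which makes them feedback genes. OASL1, the product of the deleted gene, is known to inhibit translation of Irf7 mRNA, an activity that transcript counts do not measure.

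The libraries held 3212 to 4338 cells, 16959976 to 19813039 unique molecular identifiers (UMIs) and a median of 4495 to 5186.5 UMIs per cell, and 165 of 18094 barcodes occurred in more than 1 library. Oasl1 UMIs numbered 27 and 16 in the Apoe-/- libraries against 299, 257 and 315 in those labelled Oasl1-/-Apoe-/-. By the paper's methods, the deletion took out the promoter region and 1 exon of Oasl1. Which part of the Oasl1 transcript the 3′ tags covered was not examined. Why the counts were higher under that label was not tested. The counts do not bear out the genotype, and the directions below rest on the labels. Whether the libraries of a group came from separate pools of mice was not stated, so the p-values measure the spread between libraries, which may be technical, and library preparation and genotype cannot be told apart.

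Cells were gated by fixed marker genes, and 17303 of 18260 cells received a type. Smooth muscle cells made up 67.9% and 69.5% of the Apoe-/- libraries against 47.4% to 47.9% of those labelled Oasl1-/-Apoe-/-, and macrophages 10.6% and 10.0% against 21.3% to 23.1%. Levels are given as CP10K, the mean over cells of UMIs per 10000 UMIs of the cell. Group differences are in log2(CP10K + 0.05), a scale that understates changes of low genes, and are libraries labelled Oasl1-/-Apoe-/- minus Apoe-/-. Each was tested with limma across all genes whose mean was at least 0.05 CP10K, with the library as the replicate (2 against 3) and Benjamini-Hochberg adjustment over all genes tested. A gene "rose" if its adjusted p was under 0.05.

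RefSeq start sites on GRCm38.p6 were listed for all 8 members, 11 start sites in all, each with 250 bases before and 50 bases after it. The windows were searched on both strands for GAAA followed after any 2 bases by a second GAAA, a form of the interferon-stimulated response element, and for TTCNNNGAA, the gamma-activated site, whose reverse complement is the same pattern. Of 32851 mouse promoter windows of that length, 3.44% held the first motif and 8.30% the second. Stat2 and Socs1 held the first motif, and Irf1, Irf8 and Socs3 the second. Their windows are shown because these letters differ among genes that are compared throughout, in the 5′ to 3′ direction of the gene with matches in capitals. A match is a description of the sequence, not a binding site.
Stat2 (chr10:128270248-128270547, plus strand): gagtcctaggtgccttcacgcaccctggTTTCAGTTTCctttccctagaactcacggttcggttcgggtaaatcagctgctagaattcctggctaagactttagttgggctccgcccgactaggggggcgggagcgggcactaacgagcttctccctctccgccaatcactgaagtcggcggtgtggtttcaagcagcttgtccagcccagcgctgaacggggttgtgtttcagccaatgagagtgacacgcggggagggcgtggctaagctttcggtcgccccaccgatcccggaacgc
Socs1 (chr16:10785487-10785786, minus strand): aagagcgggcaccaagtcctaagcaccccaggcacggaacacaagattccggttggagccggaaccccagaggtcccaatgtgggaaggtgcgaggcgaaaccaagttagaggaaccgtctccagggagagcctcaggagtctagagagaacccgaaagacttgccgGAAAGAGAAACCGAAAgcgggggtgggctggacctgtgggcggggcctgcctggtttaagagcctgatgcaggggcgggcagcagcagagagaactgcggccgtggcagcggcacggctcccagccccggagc
Irf1 (chr11:53769764-53770063, plus strand): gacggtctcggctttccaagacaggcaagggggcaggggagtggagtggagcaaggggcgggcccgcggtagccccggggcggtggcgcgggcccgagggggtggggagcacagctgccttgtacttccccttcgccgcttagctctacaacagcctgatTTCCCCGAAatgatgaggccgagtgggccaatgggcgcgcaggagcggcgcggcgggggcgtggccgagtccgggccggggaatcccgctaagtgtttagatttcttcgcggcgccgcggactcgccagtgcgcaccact
Irf8 (chr8:120736108-120736407, plus strand): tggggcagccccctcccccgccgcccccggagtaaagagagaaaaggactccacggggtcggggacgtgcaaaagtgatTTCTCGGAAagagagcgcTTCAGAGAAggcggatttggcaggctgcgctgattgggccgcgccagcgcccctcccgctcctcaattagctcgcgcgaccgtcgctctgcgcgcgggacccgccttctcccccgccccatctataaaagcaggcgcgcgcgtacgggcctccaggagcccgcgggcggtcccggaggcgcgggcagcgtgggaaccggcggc
Socs3 (chr11:117969317-117969616, minus strand): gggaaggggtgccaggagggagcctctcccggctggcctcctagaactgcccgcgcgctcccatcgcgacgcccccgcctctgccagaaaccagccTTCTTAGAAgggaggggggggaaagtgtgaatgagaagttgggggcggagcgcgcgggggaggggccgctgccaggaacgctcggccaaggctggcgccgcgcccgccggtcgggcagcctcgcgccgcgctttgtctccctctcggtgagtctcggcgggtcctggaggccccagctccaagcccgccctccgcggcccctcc
Counted from the start site, the match in Stat2 began at base -222, and the 2 overlapping matches in Socs1 at -83 and -77. Irf1 had its match at -90, Irf8 had 2 matches at -171 and -153, and Socs3 had 1 at -154. Irf1 and Irf8 each had another listed start site, whose window held no match. No match lay in the windows of Irf7, Irf9 or Stat3 either. The lack of a match says only that these letters were not in these windows.

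On GRCm38 (GENCODE vM21) the genes of these ISGF3 subunits were Stat2 (ENSMUSG00000040033, chr10:128270559-128292849) and Irf9 (ENSMUSG00000002325, chr14:55603571-55610030). Stat3 (ENSMUSG00000004040) lay at chr11:100885098-100939540, Irf1 (ENSMUSG00000018899) at chr11:53770014-53778374, Irf7 (ENSMUSG00000025498) at chr7:141262706-141266481 and Irf8 (ENSMUSG00000041515) at chr8:120736358-120756694. The feedback genes were Socs1 (ENSMUSG00000038037, chr16:10782240-10785536) and Socs3 (ENSMUSG00000053113, chr11:117966079-117970047).

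With all aortic arch cells of a library averaged together, 7 of the 8 members rose, beside 20.5% of all 9836 genes tested that rose there. The exception was Stat3, the STAT factor of IL-6 family cytokines, at 0.973 and 1.13 CP10K in the Apoe-/- libraries and 1.11, 1.10 and 1.08 in those labelled Oasl1-/-Apoe-/-. Irf7, an IRF that amplifies interferon production, stood at 0.159 and 0.126 CP10K against 0.519, 0.466 and 0.507, a log2 difference of 1.51 (SE 0.0824, limma adjusted p = 3.45e-07). Irf8, a factor of macrophages and dendritic cells, was at 0.449 and 0.396 against 1.12, 0.969 and 1.04 (1.21, SE 0.0717). Irf9, a subunit of ISGF3, was at 0.122 and 0.0953 against 0.312, 0.316 and 0.297 (1.18, SE 0.0817), and Stat2, of the same complex, differed by 0.88 (SE 0.0848). For these 4 genes the groups were far apart and did not overlap. Here and below, lack of overlap between 2 and 3 libraries is a description and not a test. The share of all genes without overlap was not counted.

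Differences over all cells carry the cell-type shares, and less RNA per cell and fewer cells of a type cannot be told apart in such averages. When each library's gated types were given the same shares, the log2 difference of Irf8 went from 1.21 to 0.39 (adjusted p = 0.00137) and that of Irf7 from 1.51 to 0.90. Irf9 (0.96) and Stat2 (0.81) moved little, and so did Irf1 and Socs3, both of which rose by less (0.24 and 0.23 before, 0.24 and 0.23 after). Socs1, with Apoe-/- libraries at 0.219 and 0.166 CP10K and the others at 0.217, 0.262 and 0.292, overlapped between the groups, and its call (0.34, adjusted p = 0.0352) was lost with common shares (0.10, adjusted p = 0.606). It was also lost without Apoe-/- replicate 2 (0.19, adjusted p = 0.26) or without replicate 2 or 3 labelled Oasl1-/-Apoe-/- (adjusted p = 0.0695 and 0.126). Without Apoe-/- replicate 2, Stat3 passed the threshold (0.17, adjusted p = 0.0202), and without Apoe-/- replicate 1 it stood at -0.04.

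**Figure D1:**
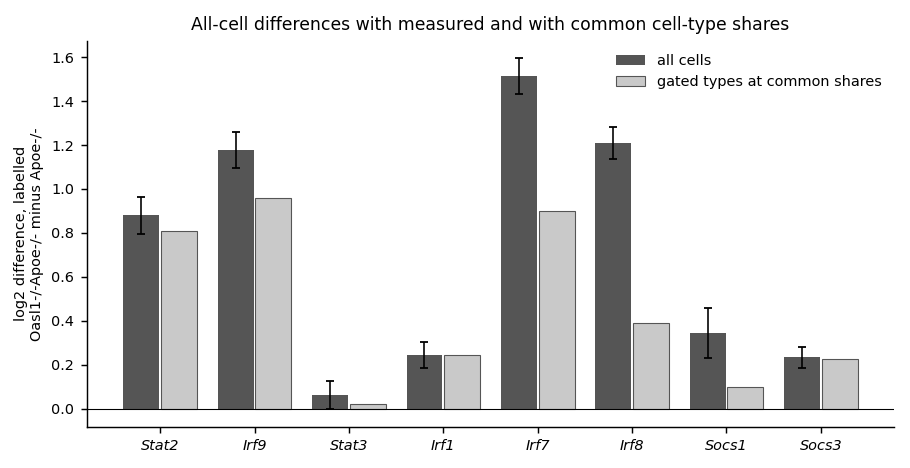
Bars show the log2 difference in CP10K + 0.05 (y axis, libraries labelled Oasl1-/-Apoe-/- minus Apoe-/-) for the 8 members (x axis). Dark bars are all cells with the SE from limma and light bars are the same libraries with the gated types at common shares, without error bars. Irf8 falls from 1.21 to 0.39 and Irf7 from 1.51 to 0.90, while Stat2 goes from 0.88 to 0.81 and Irf9 from 1.18 to 0.96.

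Across cell types the members had separate patterns. In the Apoe-/- libraries Irf8 was at 2.43 to 6.07 CP10K in dendritic cells, 2.25 to 2.34 in macrophages, 1.43 to 2.29 in NK/T cells and 1.46 to 1.82 in monocytes, and 2.46 to 2.55 in B cells. The 2 ranges of dendritic and B cells overlapped, both lay above macrophages, and macrophages and monocytes each overlapped NK/T cells. It was at or under 0.0288 in smooth muscle cells, fibroblasts and endothelial cells. Irf7 was highest in monocytes, at 1.27 and 1.83, above the 0.683 and 1.10 of B cells, with smooth muscle cells at 0.0201 to 0.0281.

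Socs1 was highest in NK/T cells, at 1.02 and 1.17 CP10K, clear of every other type, with fibroblasts next at 0.391 to 0.508 and endothelial cells at 0.0335 to 0.0914. Stat3 was also highest there, at 2.49 and 3.17, and lowest in macrophages, at 0.556 and 0.630. Socs3 was present at similar levels in the vascular wall and in leukocytes, from 2.12 in dendritic cells to 4.45 in monocytes, with 0.363 and 1.15 in B cells. In the libraries labelled Oasl1-/-Apoe-/-, monocytes remained highest for Irf7 and NK/T cells for Socs1, and macrophages moved from below smooth muscle cells to above them for Socs3 (4.65 to 4.73 against 3.43 to 3.46).

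**Figure D2:**
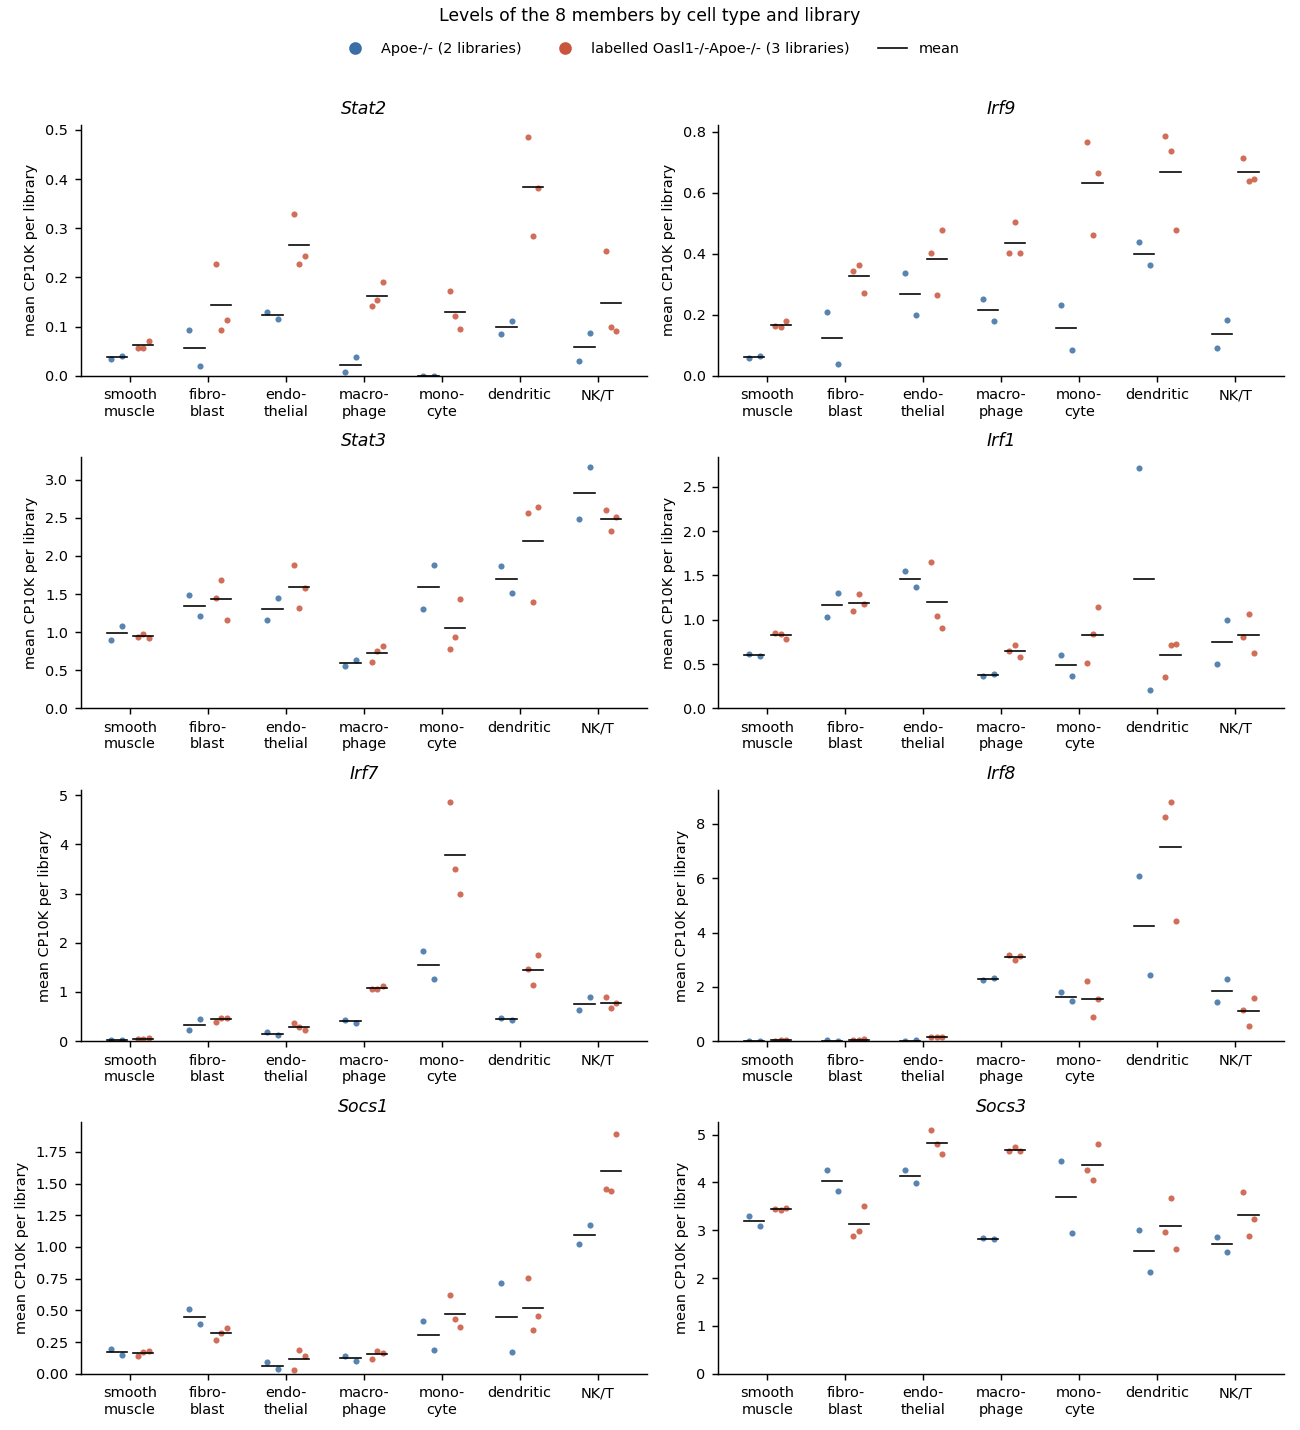
Each panel plots 1 member's mean CP10K per library (y axis, linear, from 0) in 7 gated cell types (x axis). Blue points are the 2 Apoe-/- libraries, red points the 3 libraries labelled Oasl1-/-Apoe-/- and lines their means. Macrophage points of Stat2, Irf1, Irf7, Irf8, Irf9 and Socs3 are separated by group, and Irf8 is near 0 in vascular cells.

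Macrophages, the lipid-scavenging leukocytes of the lesion, had the most members past the threshold. That count does not rank the size of change, since the gates differed in cell number. There were 3059 macrophages, against 198 monocytes, 257 dendritic cells and 655 NK/T cells. In monocytes the median log2 difference over the members was 0.65. Of the 8 members 6 rose in macrophages and none fell, beside 10.0% of 7911 genes that rose. The median log2 difference was 0.71 over the members and 0.04 over all genes tested. All 6 kept their calls when any 1 library was left out, while a filter at 0.2 CP10K removed Stat2 and Socs1 from the test.

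Stat2, a STAT factor of ISGF3, stood at 0.00723 and 0.0384 CP10K in Apoe-/- macrophages against 0.142, 0.154 and 0.191, from 13 UMIs in 868 cells and 221 UMIs in 2191 cells. Its log2 difference was 1.57 (SE 0.209, limma adjusted p = 6.73e-05). Irf9 was at 0.253 and 0.178 against 0.402, 0.505 and 0.402 (0.88, SE 0.157, limma adjusted p = 9.19e-04). Neither gene overlapped between the groups. Counting error alone makes the size of the Stat2 difference imprecise at 13 UMIs.

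Irf7 reached 1.05, 1.06 and 1.13 CP10K in the macrophages labelled Oasl1-/-Apoe-/-, from 0.432 and 0.376, a log2 difference of 1.32 (SE 0.105, limma adjusted p = 3.22e-07). The share of macrophages with an Irf7 UMI was 12.2% (95% Wilson interval 10.2 to 14.6) in the Apoe-/- libraries and 29.4% (27.6 to 31.4) in the others. The share with 4 or more UMIs was 1.04% against 4.06%. With every cell thinned to 1000 UMIs the shares were 3.87% and 9.07%, and in smooth muscle cells, where the gene was near 0, the unthinned shares were 0.744% and 2.24%. Median depth was 5289 and 5460 UMIs in macrophages and 4818 and 5143.5 in smooth muscle cells. These intervals cover counting error only. Over libraries, an exact permutation test of 2 against 3 cannot go below p = 0.1, which is what it gave here (0.21 after adjustment over 88 shares).

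Irf1, induced by interferon gamma and a driver of antigen presentation genes, was at 0.365 and 0.392 CP10K against 0.646, 0.710 and 0.578 (0.69, SE 0.121, limma adjusted p = 7.92e-04). Irf8 was already high in Apoe-/- macrophages, at 2.25 and 2.34, and reached 3.17, 3.0 and 3.13, the smallest of the 6 rises (0.43, SE 0.0714, limma adjusted p = 5.56e-04). Its UMIs were found in 56.5% and 67.1% of the cells. Both genes had groups that did not overlap.

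Of the feedback genes, Socs3 rose and Socs1 did not pass the test. Socs3 stood at 2.83 and 2.82 CP10K against 4.65, 4.73 and 4.66, so that libraries of a group lay within 0.1 of each other and the groups far apart (0.72, SE 0.0647, limma adjusted p = 1.12e-06). Socs1 was at 0.138 and 0.104 against 0.116, 0.183 and 0.162, with overlap (0.24, SE 0.189, adjusted p = 0.433). Stat3 also overlapped, at 0.556 and 0.630 against 0.613, 0.750 and 0.817 (0.27, SE 0.125, adjusted p = 0.174). The summed level of 8 smooth muscle markers in gated macrophages was 4.19 to 4.63 CP10K in the Apoe-/- libraries and 1.80 to 2.37 in the others, with none of the 8 at 0, and its part in these differences was not tested.

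**Figure D3:**
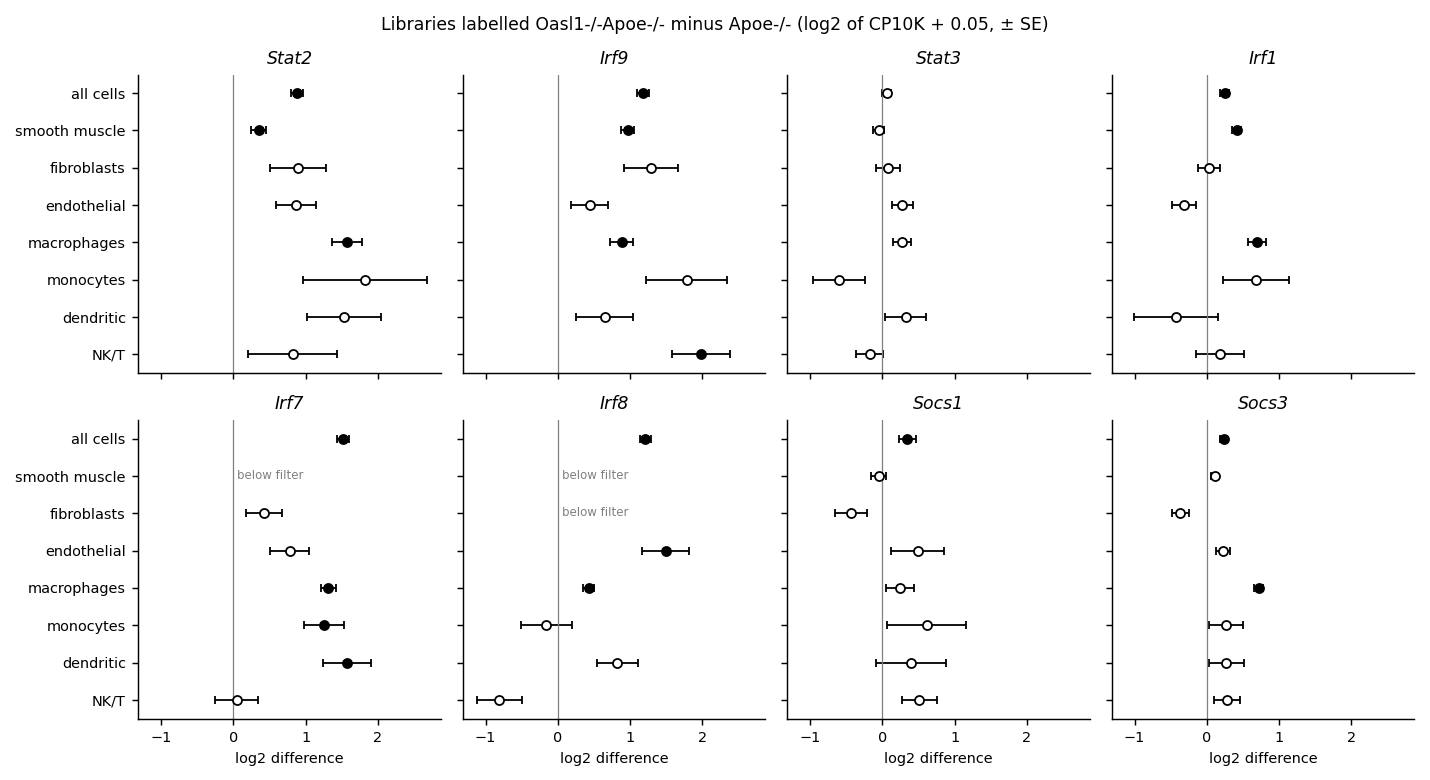
Points show the log2 difference (x axis, libraries labelled Oasl1-/-Apoe-/- minus Apoe-/-, CP10K + 0.05) with its SE from limma, for each member in all cells together and 7 cell types (y axis). Filled points had an adjusted p under 0.05 and open points did not, and genes below the filter carry no point. Macrophages hold 6 filled points, smooth muscle cells 3, and fibroblasts none.

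Gated macrophages were split at a score of 0.5 of the lipid-laden genes Gpnmb, Spp1, Lpl, Fabp5 and Cd36. The score is a range and not a cell type, and 496 of 3059 macrophages lay within 0.1 of the cut. The Apoe-/- libraries had 401 macrophages above the cut and 467 below it, and the others 515 and 1676. Stat2, Irf7 and Irf9 rose on both sides. Above the cut 4 members rose (2.37% of genes did), and below it 5 (5.50%).

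Above the cut, Irf7 was at 0.331 and 0.253 CP10K against 0.834, 0.459 and 0.806 (1.10, SE 0.229, limma adjusted p = 0.00686), and below it at 0.515 and 0.486 against 1.12, 1.23 and 1.23 (1.17, SE 0.117, limma adjusted p = 8.55e-05). No overlap was seen on either side. Socs3 was higher below the cut in both groups, and there it rose from 3.81 and 4.12 to 5.55, 5.50 and 5.60 (0.48, SE 0.0715, limma adjusted p = 0.00137). Above the cut its values of 1.65 and 1.35 against 1.69, 2.10 and 1.80 did not pass (0.30, SE 0.138, adjusted p = 0.32). Whether the Socs3 difference itself differed between the ranges was not tested.

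Calls above the cut depended on single libraries. Without Apoe-/- replicate 1 the calls of Stat2 (1.21, adjusted p = 0.07) and Irf8 (0.36, adjusted p = 0.239) were lost, and without Apoe-/- replicate 2 those of Irf7 (0.93, adjusted p = 0.0886) and Irf9 (0.63, adjusted p = 0.339). Leaving out any of the libraries labelled Oasl1-/-Apoe-/- left 1 or 2 of the 4 calls. Below the cut, leaving out any of those 3 libraries removed the calls of Irf1 (adjusted p = 0.103 to 0.195) and Irf9 (0.0992 to 0.2), and Irf9 also failed without Apoe-/- replicate 2 (0.055). Irf8, not called below the cut (0.28, adjusted p = 0.0542), passed without Apoe-/- replicate 1 or 2 (adjusted p = 0.0324 and 0.0385).

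**Figure D4:**
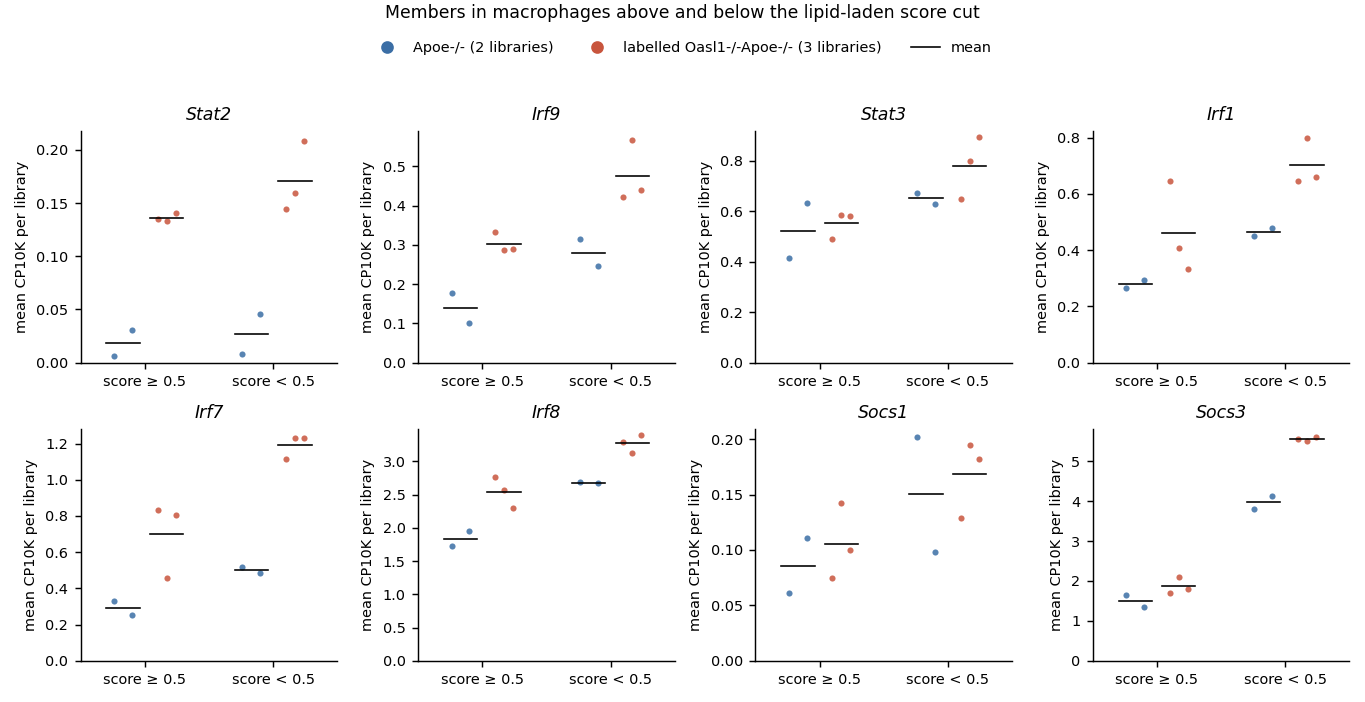
Mean CP10K per library (y axis, linear, from 0) of each member in macrophages with a lipid-laden score of at least 0.5 and under 0.5 (x axis). Blue points are the 2 Apoe-/- libraries, red points the 3 labelled Oasl1-/-Apoe-/- and lines their means. Stat2, Irf1, Irf7, Irf8, Irf9 and Socs3 are separated by group on both sides, and Socs3 is far lower above the cut.

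Smooth muscle cells, the contractile cells of the media, had 3 of 6 tested members higher (5.49% of genes), and Irf7 and Irf8 fell below the filter. Irf9 was at 0.0573 and 0.0640 CP10K against 0.162, 0.158 and 0.180 (0.97, SE 0.0918, limma adjusted p = 3.77e-06). Irf1 was at 0.614 and 0.595 against 0.846, 0.836 and 0.788 (0.42, SE 0.0626, limma adjusted p = 4.60e-04). For both, every library labelled Oasl1-/-Apoe-/- lay above both controls.

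Stat2, at 0.0344 and 0.0408 CP10K against 0.0575, 0.0565 and 0.0713, passed narrowly in smooth muscle cells (0.35, SE 0.103, limma adjusted p = 0.0487). It failed when replicate 1 or 2 labelled Oasl1-/-Apoe-/- was left out (limma adjusted p = 0.0638 and 0.0532). Without replicate 3 of that label its mean lay below the 0.05 CP10K filter, so it was not tested. It also failed without Apoe-/- replicate 1 or 2 (log2 differences of 0.30 and 0.40). Socs3 was at 3.29 and 3.10 CP10K against 3.44, 3.43 and 3.46, without overlap but not past the threshold (0.11, adjusted p = 0.205), except without Apoe-/- replicate 1 (0.15, adjusted p = 0.0405). Stat3 and Socs1 each stood at -0.05 with overlap. Summed macrophage markers in these cells were 0.668 to 0.671 CP10K in the Apoe-/- libraries and 1.28 to 1.69 in the others, with none of the 10 at 0, and their part was not tested.

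The group differences themselves were compared between macrophages and smooth muscle cells within each library. Stat2 and Socs3, 2 of the 6 members tested in both types, differed (3.88% of 6860 genes did in either direction). The difference of Stat2 was 1.22 larger in macrophages (SE 0.163, limma adjusted p = 0.0174), and that of Socs3 was 0.61 larger (SE 0.0994, limma adjusted p = 0.0278). For Irf9 the difference was -0.09 (SE 0.186, adjusted p = 0.816). Socs3 lost the call when any 1 of the 5 libraries was left out (gaps of 0.57 to 0.65). Stat2 lost it without replicate 1 or 2 labelled Oasl1-/-Apoe-/- (limma adjusted p = 0.0601 and 0.0759). Without replicate 3 of that label, Stat2 lay below the filter in smooth muscle cells and was not tested.

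In endothelial cells, the lining of the artery, 1 of 8 members rose (2.47% of genes). It was Irf8, at 0.0112 and 0.0272 CP10K in the Apoe-/- libraries and 0.140, 0.142 and 0.147 in the others, a log2 difference of 1.49 (SE 0.33, limma adjusted p = 0.00282). The counts behind it were 7 UMIs in 748 cells against 49 in 673 cells, and without Apoe-/- replicate 1 it failed (1.32, adjusted p = 0.0953). Cells with an Irf8 UMI were 0.936% (95% Wilson interval 0.454 to 1.92) against 5.50% (4.02 to 7.49), with median depths of 2803.5 and 3466 UMIs. Smooth muscle cells, which served as background, had 0.623% and 1.0% at 4818 and 5143.5 UMIs. The intervals cover counting error only. For the endothelial shares the exact permutation test over libraries gave p = 0.1, its floor (0.21 after adjustment).

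Summed macrophage markers in the endothelial gate were 0.468 and 0.806 CP10K against 1.09 to 2.01, with none of the 10 at 0. Among endothelial cells without a UMI of any of these markers, Irf8 stood at 0.00474 and 0.0132 CP10K in the Apoe-/- libraries and 0.136, 0.152 and 0.147 in the others. These values rested on 1 and 2 cells with an Irf8 UMI, of 319 and 317, against 7, 9 and 6, of 159, 159 and 128. Markers of other leukocytes were not screened, and the source of the UMIs was not tested. That comparison was added after the values were seen.

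The other 7 members did not pass the test in endothelial cells. Stat2 was at 0.129 and 0.116 CP10K against 0.329, 0.227 and 0.244, without overlap (0.86, SE 0.276, adjusted p = 0.0781). Irf7 was at 0.176 and 0.122 against 0.359, 0.296 and 0.225, also without overlap (0.78, SE 0.271, adjusted p = 0.125). Irf1 was at 1.55 and 1.37 against 1.65, 1.04 and 0.908 (-0.32, SE 0.168, adjusted p = 0.458). Summing UMIs over cells in place of averaging cells brought in Irf7 (1.16, adjusted p = 0.00275) as higher and Irf1 (-0.53, adjusted p = 0.0401) as lower.

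None of 7 members tested passed in fibroblasts by limma, where 2.43% of genes rose, although 3 had an unadjusted p under 0.05, and limma-voom on summed UMIs called none either. Irf9 was at 0.210 and 0.0394 CP10K against 0.343, 0.364 and 0.270 (1.29, SE 0.374, adjusted p = 0.0749), with no overlap and the Apoe-/- libraries far from each other. Without Apoe-/- replicate 1 the log2 difference of Irf9 was 2.06 and that of Stat2 1.41. These 2 genes had 15 and 5 UMIs in the 234 Apoe-/- fibroblasts, so the sizes are imprecise. Median depth was 4234 UMIs in Apoe-/- fibroblasts and 6643 in the others. Without Apoe-/- replicate 2 the log2 difference of Irf7 was 0.83 and that of Socs3 -0.45. Both feedback genes had values in the other direction without overlap, Socs3 at 4.25 and 3.81 against 2.87, 2.98 and 3.51 (-0.37, adjusted p = 0.11) and Socs1 at 0.508 and 0.391 against 0.267, 0.323 and 0.364 (-0.44, adjusted p = 0.312).

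The rarer leukocytes each had 1 member past the threshold. In monocytes (0.830% of genes rose) it was Irf7, at 1.83 and 1.27 CP10K against 4.87, 3.50 and 3.0, without overlap (1.26, SE 0.28, limma adjusted p = 0.0204). That call rested on 66 and 132 cells and was lost when any 1 of the 5 libraries was left out (adjusted p = 0.184 to 0.58). An Irf7 UMI was found in 22.7% of monocytes (95% Wilson interval 14.3 to 34.2) against 53.8% (45.3 to 62.1). These intervals cover counting error only. Over libraries the exact permutation test gave p = 0.1, its floor (0.21 after adjustment). With cells thinned to 1000 UMIs the shares were 10.6% and 24.4%, and median depth was 3325 and 3807.5 UMIs. Stat2 had 0 UMIs in the 66 Apoe-/- monocytes, which allows a share of cells with a UMI of up to 4.55%, and 8 UMIs in the other 132.

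Dendritic cells, which are antigen-presenting leukocytes, also had Irf7 higher (0.604% of genes rose). It was at 0.460 and 0.431 CP10K against 1.46, 1.14 and 1.75, without overlap (1.58, SE 0.332, limma adjusted p = 0.0114). The call was lost without either Apoe-/- library or replicate 1 or 3 labelled Oasl1-/-Apoe-/- (adjusted p = 0.0739 to 0.213). Irf8 ranged over 6.07 and 2.43 against 8.25, 8.82 and 4.43, with overlap (0.83, limma adjusted p = 0.333). It passed with summed UMIs as a ratio (1.23, adjusted p = 0.0191), with means of the log values (adjusted p = 0.0278) and by limma-voom (1.33, adjusted p = 0.0301), and limma-voom did not call Irf7 (1.38, adjusted p = 0.0648). Irf1 was at 2.71 in Apoe-/- replicate 1 and at 0.206 to 0.731 in the other 4 libraries.

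In NK/T cells (1.03% of genes rose) Irf9 rose, at 0.0922 and 0.182 CP10K against 0.715, 0.638 and 0.645, without overlap (1.98, SE 0.403, limma adjusted p = 0.00793). It rested on 5 UMIs in 181 cells and 61 in 474, and was lost without replicate 1 or 3 labelled Oasl1-/-Apoe-/- (adjusted p = 0.161 and 0.0682). Irf7 overlapped between the groups, at 0.621 and 0.903 against 0.894, 0.667 and 0.780 (0.04, SE 0.301). Irf8 was at 1.43 and 2.29 against 1.15, 0.562 and 1.58 (-0.81, adjusted p = 0.296), with overlap. Socs1, at 1.02 and 1.17 against 1.46, 1.45 and 1.89, did not overlap and did not pass (0.51, adjusted p = 0.395).

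No member's group difference was found to differ between other pairs of types by limma. Between macrophages and endothelial cells, 0 of 8 members passed (0.112% of genes did), 3 had an unadjusted p under 0.05, and limma-voom on summed UMIs called 3. There the difference of Irf1 was 1.01 larger in macrophages (SE 0.274, adjusted p = 0.21), and that of Irf8 was -1.06 (SE 0.205, adjusted p = 0.155). Endothelial against smooth muscle cells gave 0 of 6 (0.0364% of genes), with 2 at an unadjusted p under 0.05 and 1 by limma-voom. Fibroblasts against smooth muscle cells gave 0 of 6 (0.0236%), with 2 and 1, and monocytes against macrophages 0 of 8 (0%), with 1 and 0.

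The other genes of the pathway were counted from lists chosen, like the members, with earlier results of these data known. The counts below are therefore descriptions and not independent support. The STAT genes Stat5a (-0.12), Stat5b (0.30) and Stat6 (0.34) did not pass in macrophages, nor did the Janus kinases Jak1 (-0.03), Jak2 (0.28), Jak3 (0.13) and Tyk2 (0.40). Over all cells Jak1 rose by 0.14 (limma adjusted p = 0.0487). Of 3 other IRF genes tested in macrophages, Irf2 (0.64) and Irf5 (0.30) rose and Irf3 (0.16) did not pass, beside 10.0% of all genes that rose. Limma-voom called 1 of them.

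Of 9 receptor chains tested in macrophages 1 rose, Lifr, a chain of the leukaemia inhibitory factor receptor (0.75), at 0.0554 against 0.128 CP10K, while Ifnar1 (0.21), Ifnar2 (0.28), Ifngr1 (0.03) and Il6st (0.06) did not pass. That count of 1 of 9 is close to the 10.0% of all genes that rose in macrophages. Over all cells 7 of 10 receptor chains rose, beside 20.5% of all genes, an average that carries the cell-type shares. Smooth muscle cells had Ifngr2 (0.27) and Osmr (0.32) higher of 8 tested, beside 5.49% of all genes. Among ligands, Il6 rose in endothelial cells (2.07, from 0.0161 to 0.230 CP10K) and smooth muscle cells (0.79), Lif in fibroblasts (1.14), and Ifnb1 in macrophages (0.99, from 0.0265 to 0.0936 CP10K).

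Targets of type I interferon were called in all 7 gated types tested. In macrophages 11 of 11 rose, with a median of 1.86, among them Ifit3 (2.56) and Isg15 (2.14), and Ifi44 was listed at 0 in both Apoe-/- libraries. Endothelial cells had 9 of 10 higher, fibroblasts 8 of 10 and smooth muscle cells 6 of 7. Isg15 stood at 1.26 in endothelial and 1.91 in smooth muscle cells. Monocytes had 6 of 11 higher, dendritic cells 4 of 11 and NK/T cells 4 of 8. Limma-voom called 2 in monocytes, 3 in dendritic cells and 2 in NK/T cells. It called 11 in macrophages, 9 in endothelial cells, 7 in fibroblasts and 7 in smooth muscle cells. Interferon gamma and IRF1 targets rose for 8 of 10 genes in macrophages (Gbp3 1.61, Gbp2 1.61, Cxcl9 1.51), 5 of 9 in endothelial cells (Cxcl10 2.44, Gbp3 1.61) and 4 of 6 in smooth muscle cells (Gbp3 1.01, Icam1 0.64). Fibroblasts had 3 of 7 higher and dendritic cells 1 of 10, where limma-voom called 1 and 0. By limma the count was 0 of 10 in monocytes, with 4 at an unadjusted p under 0.05, and 0 of 8 in NK/T cells, with 2, and limma-voom called 0 in both. Of 6 STAT3 targets in macrophages, Timp1 (1.30) and Junb (0.32) rose, and limma-voom called 1.

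Among 13 other inhibitors tested in macrophages, 2 rose, beside 10.0% of all genes. Usp18, an interferon-induced protease that blocks the interferon receptor, went from 0.0797 to 0.532 CP10K (2.16, SE 0.176, limma adjusted p = 3.82e-07), and Ptpn6, a leukocyte phosphatase, rose by 0.58. Usp18 rose as well in endothelial cells (2.41), smooth muscle cells (1.75) and fibroblasts (1.93). Socs2 rose in endothelial cells (0.49) and smooth muscle cells (0.28), where Ptpn1 fell (-0.24). Socs4, Socs6 and Socs7 were tested in macrophages and did not pass (-0.01, 0.25 and 0.26).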

How the data were processed

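The data were 5 droplet 3′ libraries (Chromium Single Cell 3′ v2) of aortic arch cells, grouped by the labels. The authors mapped reads to mm10 with Cell Ranger (3.1.0), kept cells by gene number and mitochondrial share and normalized them with Seurat (4.0.3), by the submitters' processing notes and the study's methods, and DoubletFinder had served them to take out doublets. None were searched for again. In the deposited table a value is the natural log of 1 + CP10K. Undoing the log gave whole UMIs for 100% of values (tolerance 0.01).

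A cell was gated to the type with the highest mean marker score if it reached 0.3 of the mean of the 50 top cells and led the next type by 0.1. These cuts were set after the scores were seen and without reading the members, and 688 cells lay within 0.05 of them. Of gated cells, 89.1% fell in a Leiden cluster of the same name. Types with at least 20 cells in every library were tested with limma (3.58.1, R 4.3.3; lmFit, then eBayes with trend) on log2(mean CP10K + 0.05), threshold 0.05 after Benjamini-Hochberg adjustment. Differences between types were fitted to within-library differences. The scripts were tested on simulated data. Shares of cells have Wilson intervals (95%), and 245 and 311 cells under 1000 UMIs were left out of thinned shares. Alternatives were other pseudocounts, filters, summaries, gates, limma-voom, a replicate block and leaving out each library. Promoter windows came from RefSeq (GRCm38.p6).

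The members and all lists were chosen with earlier results of these data known. Named besides the members were counts of each list, up to 3 genes with the largest differences past the threshold, the 3 genes most like each member, and, after their values were seen, some uncalled genes of those lists. The result of 1 listed gene is not reported here.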

Additional observations from a re-analysis of the deposited data

Results flagged for a closer look

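For 2 members the group differences passed the test as different between 2 cell types. The Socs3 call was lost when any 1 library was left out, and that of Stat2 without replicate 1 or 2 labelled Oasl1-/-Apoe-/-. Neither was called with a pseudocount of 0.01 or with the replicate block. The log2 difference of Stat2 was 1.57 in macrophages and 0.35 in smooth muscle cells, a gap of 1.22 (SE 0.163, limma adjusted p = 0.0174), and 13 UMIs stood behind the Apoe-/- macrophage value. The log2 difference of Socs3 was 0.72 in macrophages and 0.11 in smooth muscle cells, a gap of 0.61 (SE 0.0994, limma adjusted p = 0.0278), and its Apoe-/- macrophage libraries stood at 2.83 and 2.82 CP10K. Socs3 was also lower in macrophages above the lipid-laden cut (1.65 and 1.35 against 3.81 and 4.12 CP10K below it in the Apoe-/- libraries), and 467 of 868 and 1676 of 2191 macrophages lay below it. Its log2 difference was 0.48 below the cut and 0.30 above it (adjusted p = 0.32). In each of the 7 gated types tested, summed smooth muscle markers were lower where the label was Oasl1-/-Apoe-/-, in macrophages at 1.80 to 2.37 against 4.19 to 4.63 CP10K and in smooth muscle cells at 454.8 to 463.7 against 507.1 to 530.3. The part of these shifts in either gap was not tested. No group had 4 or more libraries, so single libraries were not tested as outliers.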

How the results depend on the processing

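In macrophages the number of members that rose stayed at 6 when any 1 library was left out, and over all cells it lay between 6 and 7. Of the log2 differences of single members, 1310 kept direction and call under an alternative, 91 lost a call, 35 gained one and 39 changed sign. The causes of the changes below were not tested unless fewer genes or libraries entered. Left-out single libraries gave 0 to 2 members in fibroblasts, 0 to 1 in endothelial cells, 0 in monocytes under each, 0 to 1 in dendritic cells, 0 to 1 in NK/T cells, 1 to 2 above and 3 to 6 below the lipid-laden cut, and 0 to 1 for macrophages against smooth muscle cells. A lone remaining Apoe-/- library was assumed to vary like the others.

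With a filter at 0.2 CP10K, smooth muscle cells had 1 member higher and endothelial cells 0, and 1 differed between macrophages and smooth muscle cells. With no filter, 2 rose above the lipid-laden cut and 3 below it. A pseudocount of 0.01 gave 0 in monocytes and 0 for macrophages against smooth muscle cells, and one of 0.5 gave 3 for macrophages against endothelial cells and 1 for fibroblasts against smooth muscle cells. Summed UMIs as a ratio gave 1 in fibroblasts, 3 in endothelial cells and 2 in dendritic cells. Means of the deposited log values gave 2 in fibroblasts, 3 in endothelial cells, 2 in dendritic cells and 3 for macrophages against endothelial cells. Without a trend, 0 rose in monocytes, dendritic cells and NK/T cells, 1 above and 2 below the cut. Limma-voom gave 3 in endothelial cells, 0 in monocytes and NK/T cells, 1 for endothelial against smooth muscle cells, 3 for macrophages against endothelial cells and 1 for fibroblasts against smooth muscle cells. The stricter marker cut gave 2 above the lipid-laden cut, Leiden clusters 1 in fibroblasts and 1 for macrophages against smooth muscle cells, the median of ratios scale 3 below the cut, and libraries weighted by cell number, added after seeing the data, 3 below the cut.

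The replicate block gave 2 members in fibroblasts, 2 in endothelial cells, 0 in monocytes, 2 in NK/T cells, 3 below the lipid-laden cut and 0 for macrophages against smooth muscle cells. It brought in Irf8 in dendritic cells in place of Irf7, and so did limma-voom. Deviations of same-numbered libraries correlated at 0.0148 and 0.0429. With 2 Apoe-/- libraries their deviations mirror each other, so these values cannot settle whether same-numbered libraries share more than a number.

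Sign changes of members not past the threshold were as follows. Left-out libraries gave ranges of -0.045 to 0.17 for Stat3 over all cells, -0.18 to 0.069 for Stat3 and -0.21 to 0.11 for Socs1 in smooth muscle cells, -0.067 to 0.22 for Stat3 and -0.13 to 0.19 for Irf1 in fibroblasts, -0.46 to 0.19 for Irf8 and -0.029 to 0.56 for Socs3 in monocytes, -2.15 to 1.28 for Irf1 and -0.49 to 1.28 for Socs1 in dendritic cells, and -0.27 to 0.64 for Irf1 and -0.21 to 0.30 for Irf7 in NK/T cells. The ranges were -0.18 to 0.37 for Stat3 and -0.068 to 0.46 for Socs1 above the lipid-laden cut, -0.22 to 0.55 for Socs1 below it, and -0.34 to 0.16 for Irf9 in macrophages against smooth muscle cells. Means of the deposited log values gave 4.95e-04 for Socs1 in smooth muscle cells, 0.073 for Irf8 in monocytes, 0.055 for Irf9 in macrophages against smooth muscle cells, and 0.17 (adjusted p = 0.0124) for Irf8 in macrophages against endothelial cells, where a pseudocount of 0.5 gave 0.056. In fibroblasts, ratios of summed UMIs gave -0.18 for Stat3 and -0.0085 for Irf1, limma-voom -0.20 and -0.016, and Leiden clusters -0.29 for Irf1 and 0.22 for Socs1. In NK/T cells, ratios gave 0.080 and limma-voom 0.088 for Stat3, and the stricter cut 0.33 for Irf8. Socs1 above the lipid-laden cut was -0.092 with Leiden clusters. For Irf9 in macrophages against smooth muscle cells, a pseudocount of 0.5 gave 0.14, Leiden clusters 0.10 and the replicate block 0.0042. Monocytes could not be fitted with the stricter cut or Leiden clusters, which left under 20 cells in a library.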

Other observations

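B cells and neutrophils had too few cells for a test. In the 75 B cells of the Apoe-/- libraries Irf8 stood at 2.55 and 2.46 CP10K, and in the 40 of the others at 7.02, 5.66 and 0.708. Neutrophils had no Irf8 UMI in 39 and 57 cells, which in the 39 allows a share of cells with a UMI of up to 7.69%, and Socs3 was at 4.15 and 2.97 against 4.39, 3.74 and 3.92 CP10K there. Median depth was 751 and 1193 UMIs. The 32 cells of the plasmacytoid dendritic gate had summed macrophage markers of 2.68 to 133.1 CP10K and were not described further.

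The genes most like each member over 35 points of cell type and library were described by Pearson's r across 9748 genes, with no test, since points share libraries and depth. Isg15 (0.81) and Rtp4 (0.80) were among the genes most like Irf9. Irf7 was most like Zbp1 (0.94), Tgif1 (0.92) and Gch1 (0.92), and Irf8 like Arpc4 (0.97), Snx20 (0.96) and Bcl2a1d (0.96). Stat2 was most like Ifi44 (0.77), Il15ra (0.74) and Hspa1a (0.72). Stat3 was most like the ribosomal protein genes Rpl13 (0.85), Rpl9 (0.82) and Rpsa (0.82), and Irf1 like Plagl1 (0.73), Cdk16 (0.71) and Prkag1 (0.70). Socs1 was most like Fosl2 (0.88), Zfp36l2 (0.82) and Pnrc1 (0.82), and Socs3 like the immediate early phosphatase gene Dusp1 (0.80), Tlr4 (0.72) and Adipor1 (0.66). Among the members, Irf7 with Irf8 (0.74) and Stat2 with Irf9 (0.71) were the most alike, and the pair Socs1 and Socs3 stood at -0.31.

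In Apoe-/- macrophages no cell had more than 1 Stat2 UMI, while 1.14% of the macrophages labelled Oasl1-/-Apoe-/- had 2 or more.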
